A study of Mus musculus with 32 samples.

Results

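The transcriptome of pachytene and diplotene spermatocytes enriched from adult mice was described across genes, beside that of mixed germ cells at 18 days post partum (dpp). The adult samples are the 4 columns of their own table, 4 of the 32 samples of the series, and each was made from the pooled testes of 6 C57BL/6J males aged 9 weeks. Their cells were separated by size on an albumin gradient at unit gravity (STA-PUT), and fractions of large spermatocytes were collected. The 5 samples at 18 dpp each came from 1 C57BL/6J male, and their germ cells were not fractionated. No treatment or mutation is named for any group. The rest of the series is germ cells of 23 single C57BL/6J mice aged 8, 10, 12, 14 or 16 dpp, which were used here only to ask which genes changed during early meiosis. All libraries were made from poly(A) RNA and quantified as TPM, a transcript level corrected for length and scaled to the same total in each library.

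During pachynema, homologous chromosomes are joined along their length by the synaptonemal complex, recombination is completed, and the X and Y chromosomes are transcriptionally silenced within the sex body. From mid-pachynema on, spermatocytes switch on a large set of genes for later sperm functions, including glycolytic enzymes, tail proteins and acrosome proteins, many of which are translated only after meiosis. The testis of the first wave contains spermatogonia, early spermatocytes and somatic cells in larger proportion than the adult seminiferous epithelium, whose most numerous cells include spermatids.

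The adult and juvenile tables were quantified apart. Age, sedimentation, pooling, sequencing project and table all changed with the group, so that their effects cannot be told apart, and no test was run between adult and 18 dpp samples. Genes were instead ordered by TPM within each sample (position 1 = highest) over the 38904 Ensembl genes found in both tables. A gene of at least 3 TPM in at least 1 of the 9 samples was counted as higher or lower in adult cells when its positions did not overlap between the groups and its median positions differed at least 2-fold. Of 14929 such genes, 1696 (11.4%) were counted as higher and 1603 (10.7%) as lower. Without the 2-fold requirement 39.5% lay higher and 41.8% lower. The median log2 ratio of positions (18 dpp over adult) was -0.03 over all of them. A gene of a few TPM could reach a 2-fold difference against listed zeros, which tie at the bottom, but could miss it against a low value. Counted too were genes at 3 TPM or more in every sample of one group and under 1 TPM in every sample of the other. There were 222 of these in adult cells (1.49%) and 950 at 18 dpp (6.36%). The order turned at 1 TPM or more against a listed 0, where 138 genes were found in adult cells alone and 85 at 18 dpp alone.

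The split between directions depended on the scale. By position, 51.4% of the genes counted were higher in adult cells. By log2(TPM + 1) with means at least 1 apart and no overlap, 29.3% were, and the median difference over all 14929 genes was -0.60. Directions of gene groups are therefore given by position and, where the scales disagree, relative to that median.

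Adult samples 1 to 4 were alike. Spearman correlations of TPM across genes lay between 0.942 and 0.946 among them, between 0.945 and 0.956 among the 18 dpp mice, and between 0.851 and 0.891 between groups. These are descriptions across genes, which are not replicates. Between 13028 and 13319 genes of all kinds reached 3 TPM in adult samples and between 15669 and 16041 did in 18 dpp mice. The depth behind each value is unknown, since TPM does not carry it. Mice 4 and 5 of 18 dpp stood apart from mice 1 to 3, with lower levels of late spermatocyte genes and higher levels of somatic markers. Without mice 4 and 5, 1464 genes were counted as higher and 1399 as lower. With mice 4 and 5 as the only 18 dpp samples, 2604 and 2218 were. Both settings were added after the data were seen.

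Marker genes were set beside the label of the adult samples. Of 30 late pachytene markers, 29 were at 3 TPM or more in all 4 adult samples and 28 in every 18 dpp mouse. All 30 spermatid markers also reached that level in every adult sample, so presence alone does not single out the labelled cells. The late pachytene exception in adult samples was Hist1h1t, the testis histone H1 of mid-pachytene spermatocytes. It was at 2.45 to 4.34 TPM in adult samples and 0 to 0.91 TPM at 18 dpp. Most spermatogonial markers were low, with 5 of the 22 tested at 3 TPM or more in every adult sample against 20 at 18 dpp. The summed TPM of that list went the other way, at 1463 to 1623 in adult samples and 1239 to 1351 at 18 dpp. Dmrtb1 made up most of the adult sum.

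Markers of other cells differed sharply in amount between the groups. Summed TPM of 14 Sertoli cell markers was 545 to 801 in adult samples and 6470 to 8563 at 18 dpp, and 13 of the 14 were counted as lower. Clu, the secreted chaperone clusterin, was the most abundant of them, at 253, 325, 307 and 368 TPM in adult samples and 2623, 2582, 2700, 3246 and 3345 TPM in 18 dpp mice. Sertoli cell transcripts were therefore low but not at 0 in the enriched cells. The 5 peritubular markers summed to 5.57 to 10.7 TPM against 524 to 1034 TPM, and the 4 endothelial markers to 1.43 to 3.09 against 31.8 to 65.2 TPM. Macrophage markers summed to 3.32 to 4.35 TPM against 51.0 to 99.7 TPM, and C1qa was listed at 0 in all 4 adult samples. Red blood cell markers summed to 5.38 to 8.59 against 250 to 367 TPM, and Hbb-bs was listed at 0 in all 4 adult samples. The 7 Leydig cell markers together overlapped, at 214 to 282 TPM against 200 to 552 TPM. Of the 7, 3 were lower in position without overlap (beside 41.8% of all genes) and none higher (beside 39.5%). Their median log2 ratio of positions was -0.003. The other 6 without Insl3 summed to 61.0 to 74.9 TPM in adult samples and 118 to 394 TPM at 18 dpp. Insl3, the most abundant, was at 153, 208, 161 and 183 TPM in adult samples and 75.8, 56.9, 82.4, 158 and 185 TPM at 18 dpp. In whole samples such as these, fewer cells of a type and less RNA per cell cannot be told apart.

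Spermatid transcripts moved the other way. The 30 markers of the spermatid list, which are genes of chromatin compaction, acrosome and tail, summed to 6886 to 7589 TPM in adult samples and 956 to 2236 TPM at 18 dpp, and 29 were counted as higher. Of these, 9 met the presence rule for adult cells alone, namely Prm1, Prm2, Prm3, Akap4, Spem1, H1fnt, Sun5, Catsper1 and Catsper3. Whether these transcripts lie in spermatocytes or in spermatids carried along by sedimentation was not tested.

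**Figure D1:**
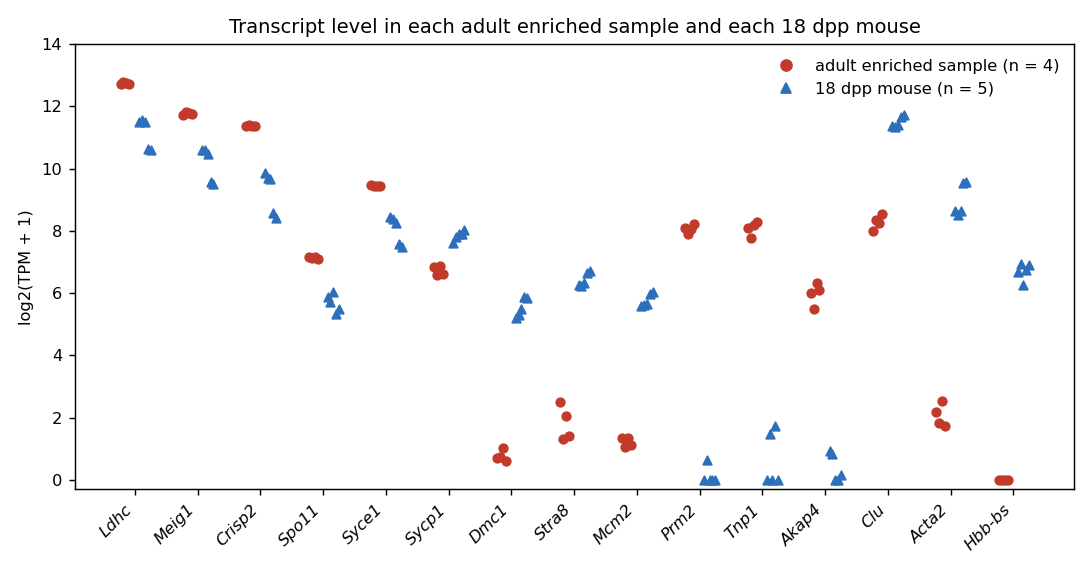
Level of 15 genes, as log2(TPM + 1), in each adult enriched sample (red circles, n = 4) and each 18 dpp mouse (blue triangles, n = 5). Ldhc, Meig1 and Crisp2 lie at the top in every adult sample, Dmc1, Stra8 and Mcm2 lie near the bottom there, and Prm2, Tnp1 and Akap4 are near 0 at 18 dpp.

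The most abundant transcript of the enriched cells was Ldhc, the germ cell lactate dehydrogenase (ENSMUSG00000030851, GRCm38 chr7:46861203-46878142, plus strand). It was at 6756, 7017, 6918 and 6719 TPM in adult samples and at 2917, 3038, 2891, 1589 and 1543 TPM in 18 dpp mice. Its median position was 1 in adult cells and 12 at 18 dpp, and the groups did not overlap. Next came Ubb, a polyubiquitin gene, at 5395 to 5867 TPM in adult samples and 3816 to 4616 TPM at 18 dpp, although 49.8% of its transcript's 100-base windows are found in other genes and its value is uncertain for that reason. Gm3448, a gene overlapping Tcte3, held median position 3.5 with 5363 to 5829 TPM. Meig1, required for assembly of the sperm tail, was at position 8, with 3405, 3627, 3540 and 3416 TPM in adult samples and 1555, 1538, 1407, 753 and 733 TPM at 18 dpp. Tuba3a, a testis alpha-tubulin that shares 12.3% of its windows with Tuba3b, and Rsph1, a radial spoke protein, held positions 9 and 10. The remaining 4 of the first 10 were the mitochondrial genes mt-Co2, mt-Co3, mt-Co1 and mt-Atp6, which stood at positions 1 to 4 at 18 dpp. Their transcripts share windows with nuclear copies (30.8% for mt-Co1, 99.5% for mt-Co2 and mt-Atp6 and 99.9% for mt-Co3).

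Mitochondrial transcripts as a whole took 3.03 ± 0.259% of Ensembl TPM in adult samples (SD, n = 4) and 8.55 ± 1.60% at 18 dpp (SD, n = 5). By position, 9 of 12 tested mitochondrial protein genes were counted as lower. The ranges did not overlap, with 2.70 to 3.29% in adult samples and 6.86 to 10.4% at 18 dpp.

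Late pachytene genes held the upper positions in adult cells. Of the 30 genes of that list, 19 were counted as higher and 1 as lower, and the median log2 ratio of positions was 1.26. Crisp2, a cysteine-rich protein of the acrosome and tail, was at 2658, 2698, 2631 and 2630 TPM in adult samples and 919, 828, 819, 382 and 339 TPM at 18 dpp. Adam3, a sperm surface protein needed for fertility, was at 959, 1120, 949 and 1083 TPM and at 367, 314, 290, 92.0 and 88.4 TPM. In both genes every adult sample lay above every 18 dpp mouse, and mice 4 and 5 were the lowest. Ccna1, the meiotic cyclin A1, was at 246, 278, 236 and 278 TPM against 106, 90.6, 87.1, 17.5 and 14.0 TPM. Adam2, Adam5, Clgn, Tbpl1, Tcfl5, Ovol1, Tdrd6, Acr, Zpbp, Dkkl1, Insl6, Spata16, Spag6, Pgk2, Ldhc and Meig1 were the others counted as higher.

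The 10 remaining late genes were counted in neither direction. Hspa2, a testis heat shock protein needed to complete meiosis, was at 1610, 1463, 1567 and 1546 TPM against 992, 947, 949, 671 and 633 TPM, without overlap but at positions 46.5 and 70. Piwil1, Ybx2, Brdt, Rfx2, Sox30, Mybl1 and Tdrd5 likewise had higher mean TPM in adult cells without a 2-fold shift in position. Nek1 had a lower mean, 28.0 against 40.3 TPM.

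The exception was Tex101, a germ cell surface protein, at 329, 239, 303 and 235 TPM in adult samples and 780, 939, 923, 980 and 1004 TPM at 18 dpp. Its median position went from 70 at 18 dpp to 711 in adult cells. In the juvenile mice the same gene had risen by 1.98 ± 0.13 (SE) log2 units from 10 to 16 dpp (limma, adjusted p = 6.6e-12).

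**Figure D2:**
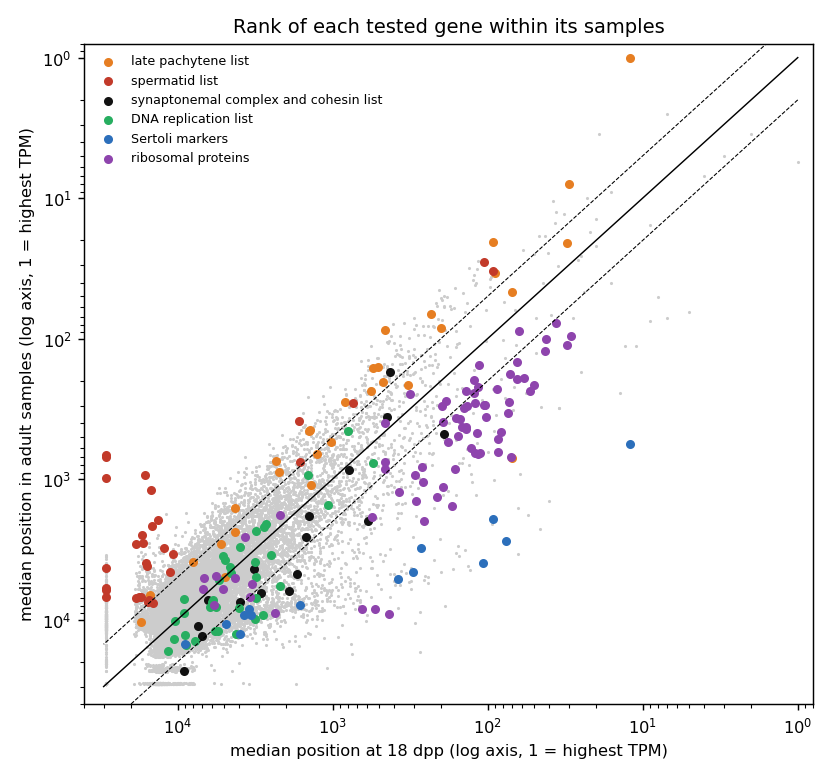
Median position of each of 14929 genes in adult samples (vertical log axis) against 18 dpp mice (horizontal log axis), with position 1 at the upper right, a solid line of equal positions and dashed lines of 2-fold difference. Late pachytene genes (orange) and spermatid genes (red) lie mostly above the lines, and Sertoli markers (blue) and ribosomal protein genes (purple) below.

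A few promoters of genes named here are printed for reference, as the 250 bases before the RefSeq start in GRCm38.p6, 5′ to 3′ on the gene's strand. They show an abundant late gene and its general paralog (Ldhc and Ldha), a second such pair (Pgk2 and Pgk1), the meiotic cyclin and 1 gene detected in adult cells alone (Iqcf3). Capitals mark matches to AACNGNC, the motif of MYB factors, or to TGACGTCA, the cAMP response element (CRE), searched on both strands. Coordinates are chr7:46861013-46861262 (plus) for Ldhc, chr7:46845554-46845803 (plus) for Ldha, chr17:40208610-40208859 (minus) for Pgk2, chrX:106186850-106187099 (plus) for Pgk1, chr3:55055056-55055305 (minus) for Ccna1 and chr9:106561627-106561876 (minus) for Iqcf3.
Ldhc: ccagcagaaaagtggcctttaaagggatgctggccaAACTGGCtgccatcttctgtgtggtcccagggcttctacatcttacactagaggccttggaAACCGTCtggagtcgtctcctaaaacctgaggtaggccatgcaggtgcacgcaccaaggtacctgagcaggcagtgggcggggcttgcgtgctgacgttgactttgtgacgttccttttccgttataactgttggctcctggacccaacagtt
Ldha: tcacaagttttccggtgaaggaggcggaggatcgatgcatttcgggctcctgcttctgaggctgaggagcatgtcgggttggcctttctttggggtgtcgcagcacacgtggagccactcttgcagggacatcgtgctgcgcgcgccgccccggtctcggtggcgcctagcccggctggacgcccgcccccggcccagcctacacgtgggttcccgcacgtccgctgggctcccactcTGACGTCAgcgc
Pgk2: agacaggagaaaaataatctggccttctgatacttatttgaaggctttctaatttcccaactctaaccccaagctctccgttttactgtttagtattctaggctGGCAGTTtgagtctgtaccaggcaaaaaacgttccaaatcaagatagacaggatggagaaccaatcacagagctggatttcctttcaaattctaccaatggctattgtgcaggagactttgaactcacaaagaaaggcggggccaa
Pgk1: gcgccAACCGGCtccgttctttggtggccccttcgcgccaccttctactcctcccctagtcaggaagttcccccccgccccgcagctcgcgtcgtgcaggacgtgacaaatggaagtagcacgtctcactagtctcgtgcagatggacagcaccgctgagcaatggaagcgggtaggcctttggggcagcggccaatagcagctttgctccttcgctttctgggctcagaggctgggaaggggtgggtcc
Ccna1: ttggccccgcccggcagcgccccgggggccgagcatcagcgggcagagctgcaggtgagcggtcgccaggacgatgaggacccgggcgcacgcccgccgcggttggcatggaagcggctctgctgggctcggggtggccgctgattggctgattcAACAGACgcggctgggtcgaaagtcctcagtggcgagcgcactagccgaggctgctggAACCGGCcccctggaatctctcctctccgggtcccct
Iqcf3: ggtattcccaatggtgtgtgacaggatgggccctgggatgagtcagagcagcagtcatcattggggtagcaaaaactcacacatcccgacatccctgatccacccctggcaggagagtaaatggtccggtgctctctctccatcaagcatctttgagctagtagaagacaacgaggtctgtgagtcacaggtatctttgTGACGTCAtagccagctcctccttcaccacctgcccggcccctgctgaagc

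The MYB letters were in 27.6% of 27025 RefSeq promoters, in 28.5% of those of tested protein-coding genes, in 36.4% of those of protein-coding genes counted as higher (409 of 1125 matched, of 1383) and in 25.7% of those counted as lower. Among genes counted as higher that were already at 3 TPM or more in every 18 dpp mouse the share was 39.1%, and among genes present in adult cells alone it was 28.4%. The CRE letters were in 1.62% of all promoters, 2.70% of those of tested genes, 2.49% of those counted as higher and 3.05% of those counted as lower. The X-box, a palindrome bound by RFX factors, was in 0.363% of all promoters, 0.517% of those of tested genes, and 0.889% and 0.330% of those counted as higher and lower. The Ldhc window holds MYB letters and no CRE, and that of Ldha the reverse, although both genes were counted as higher. A match describes these letters alone and is no evidence of binding.

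Among genes counted as higher, the 10 with the largest ratio of positions were Tnp1, Prm2, Prm1, Tnp2, Smcp, Ldhc, Ropn1, Cypt12, Hmgb4 and Tmco2. Prm2, a protamine that replaces histones in spermatids (ENSMUSG00000038015, chr16:10791380-10796134, minus strand), was at 274, 237, 268 and 299 TPM in adult samples and was listed at 0 in 4 of 5 mice at 18 dpp, with 0.57 TPM in mouse 2. Prm1 was at 184, 189, 227 and 236 TPM against at most 0.77 TPM. Tnp1, a transition protein that precedes the protamines (chr1:73015074-73015909, minus strand), was at 269, 219, 293 and 311 TPM against 0 to 2.34 TPM. All 3 were above 180 TPM in every adult sample and at most 2.34 TPM in any 18 dpp mouse. Smcp, a mitochondrial sheath protein of sperm, was at 165, 131, 224 and 186 TPM against 0 to 3.28 TPM. The overlap of Tnp1 with 1700027A15Rik on the other strand leaves a small doubt on its value, since strand-specific counting is not stated.

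Among genes under 1 TPM in every 18 dpp mouse, those of highest adult level after the protamines were Akap4, Cypt12, Hmgb4, Tmco2, 4933411K16Rik, 1700013G24Rik, Iqcf3 and Spert. Akap4, the main anchoring protein of the fibrous sheath, is X-linked (ENSMUSG00000050089, chrX:7067519-7078609). It was at 63.4, 43.5, 78.6 and 67.6 TPM in adult samples and 0.93, 0.80, 0, 0 and 0.11 TPM at 18 dpp. Hmgb4 and Iqcf3 were listed at 0 in all 5 mice at 18 dpp and were at 35.0 to 64.9 and 25.4 to 53.5 TPM in adult samples. Other spermatid genes were Odf1 (82.3 to 132 against 0 to 2.73 TPM), the outer dense fibre protein, and Oaz3 (87.1 to 147 against 1.00 to 3.44 TPM), a testis antizyme. Genes of the list that were already well expressed at 18 dpp were counted as higher as well, such as Catsper2, of the sperm calcium channel (393 to 453 against 39.6 to 141 TPM), and Crem, a transcription activator of spermatids (239 to 272 against 71.7 to 127 TPM). Counting without mice 1 to 3 of 18 dpp raised the genes present in adult cells alone from 222 to 433, and counting without mice 4 and 5 gave 230.

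Axonemal genes, which encode the dynein arms, radial spokes and tektins of the sperm tail, were counted as higher in 27 of 29 tested cases and as lower in none, with a median log2 ratio of 1.38. Dnah8, a dynein heavy chain, was at 370, 405, 417 and 446 TPM in adult samples and 226, 159, 138, 74.0 and 66.4 TPM at 18 dpp. Spag16, of the central apparatus, was at 274 to 285 TPM against 35.8 to 95.9 TPM, and Tekt4 at 134 to 157 TPM against 8.54 to 49.3 TPM. Ccdc39 and Dnah3 were counted in neither direction, the first at 340 to 357 against 87.9 to 189 TPM and the second at 2.62 to 5.51 against 0.03 to 0.31 TPM. Of the 26 members tested in juvenile mice, all rose from 10 to 16 dpp (background 28.0% of 19248 genes rose and 26.9% fell). The summed level of the spermatid markers moved with these genes, and its part was not tested.

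Genes of early prophase were mixed. Of 27 tested genes of leptonema and zygonema, which make and process the programmed DNA breaks, 6 were counted as lower, 1 as higher and 20 in neither direction, with a median log2 ratio of -0.14. Without the 2-fold requirement 13 were lower in position (beside 41.8% of all genes) and 7 higher (beside 39.5%). Those higher were Spo11, Ccdc36, Psmc3ip, Hsf2bp, Terb1, Terb2 and Majin. Dmc1, the meiotic recombinase (ENSMUSG00000022429, chr15:79561497-79605109), was at 0.62, 0.66, 1.03 and 0.52 TPM in adult samples and 36.1, 38.8, 44.3, 57.4 and 56.3 TPM at 18 dpp. Prdm9, which places the breaks, was at 0.49 to 1.62 TPM against 21.3 to 32.1 TPM, and Zcwpw1, a reader of the histone marks it leaves, at 15.1 to 22.2 TPM against 98.0 to 131 TPM. Tex11, Tex15 and Hormad1 were the other genes counted as lower. Their adult levels ranged widely, from 0.75 to 1.37 TPM for the X-linked Tex11 to 169 to 212 TPM for Hormad1, an axis protein. From 10 to 16 dpp, 22 of 28 tested genes of this list rose and none fell.

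Spo11, which cuts DNA to begin recombination, was the gene counted as higher. It was at 142, 138, 141 and 135 TPM in adult samples and 57.5, 52.0, 64.4, 39.4 and 44.1 TPM at 18 dpp (ENSMUSG00000005883, chr2:172977700-172993576). The groups did not overlap, and the median position was 1531 in adult cells and 4010 at 18 dpp. Spo11 had risen by 2.42 ± 0.15 (SE) log2 units from 10 to 16 dpp (limma, adjusted p = 3.14e-12), whereas Dmc1 rose by 0.56 ± 0.10 (adjusted p = 2.35e-05). Gene sums hide isoforms, which were not examined here for the adult samples.

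Subunits of the synaptonemal complex and of cohesin, the ring that holds sister chromatids, also differed among themselves. Of 16 genes, 6 were counted as lower and 1 as higher (median log2 ratio -0.85). Syce1, of the central element, was the one counted as higher, at 715, 697, 698 and 696 TPM against 347, 329, 304, 191 and 178 TPM. Sycp1, the transverse filament protein, was at 114, 95.2, 115 and 98.1 TPM against 195, 221, 239, 239 and 262 TPM, and Sycp3, of the lateral element, at 374, 349, 426 and 348 TPM against 444, 475, 532, 511 and 549 TPM. Both were lower in every adult sample than in every 18 dpp mouse. Syce2, 4930447C04Rik and the cohesin subunits Rad21l and Rad21 were also counted as lower. The meiotic cohesin subunits went separate ways, as Stag3 was at 416 to 443 against 213 to 306 TPM and Rec8 at 8.94 to 12.4 against 25.0 to 40.7 TPM. Rad21l, present in early prophase, was at 0, 0.70, 0.15 and 0 TPM against 9.89 to 17.0 TPM.

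**Figure D3:**
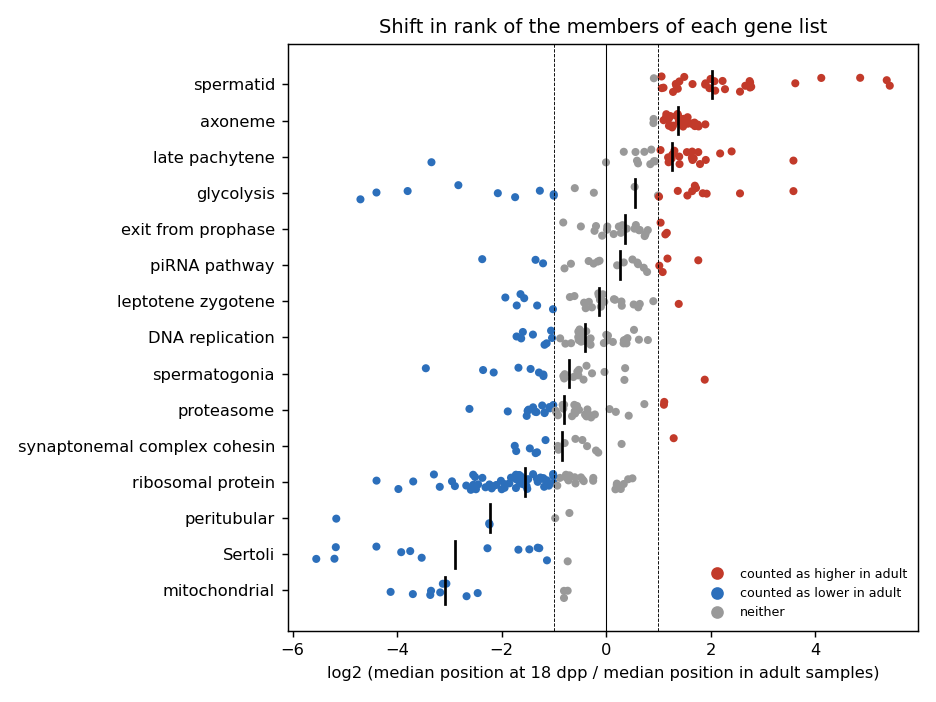
Shift in position of the members of 15 gene lists, as log2 of median position at 18 dpp over median position in adult samples (points right of 0 are higher in adult cells), with a black bar at each list's median and dashed lines at a 2-fold shift. Spermatid, axoneme and late pachytene members lie to the right, and peritubular, Sertoli and mitochondrial members to the left.

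Most spermatogonial genes stood lower in adult cells. Of 22 tested, 8 were counted as lower, 1 as higher and 13 in neither direction (median log2 ratio -0.71). Without the 2-fold requirement 18 were lower in position (beside 41.8% of all genes) and 3 higher (beside 39.5%), namely Dmrtb1, Id4 and Egr4. Stra8, which opens meiosis, was at 4.62, 1.47, 3.20 and 1.69 TPM against 76.0, 74.2, 79.7, 99.6 and 104 TPM. Dmrt1, of mitotic spermatogonia, was at 2.24 to 4.28 against 91.8 to 128 TPM, and Uchl1, a deubiquitinase, at 20.4, 24.4, 24.6 and 20.4 TPM against 246, 266, 267, 347 and 376 TPM. Kit, Ret, Zbtb16 and Lin28a did not reach a 2-fold shift in position but lay below 2 TPM in every adult sample. Dmrtb1, which controls the step from mitosis to meiosis, was at median position 53 in adult cells and 196 at 18 dpp. It was at 1434, 1499, 1330 and 1444 TPM against 579, 574, 524, 231 and 194 TPM, and in the juvenile mice it rose by 1.17 ± 0.13 (SE) log2 units from 10 to 16 dpp (limma, adjusted p = 3.85e-08). Id4 overlapped between the groups in TPM, at 61.3, 61.4, 66.3 and 58.0 TPM against 50.7, 49.1, 63.7, 51.9 and 54.2 TPM.

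DNA replication genes split within the machinery. Of 36 tested, 8 were counted as lower and none as higher (median log2 ratio -0.40), and without mice 4 and 5 of 18 dpp 5 were lower. Of the 6 subunits of the replicative helicase, Mcm2, Mcm3, Mcm4, Mcm5 and Mcm6 were counted as lower and Mcm7 was not. Mcm2 was at 1.54, 1.09, 1.54 and 1.17 TPM against 47.3, 48.3, 49.0, 61.4 and 64.2 TPM. Mcm7 was at 146, 141, 134 and 137 TPM against 162, 171, 144, 129 and 149 TPM, with overlap in TPM. Pcna, the sliding clamp, overlapped in TPM as well, at 267, 245, 263 and 236 TPM against 246, 249, 252, 241 and 238 TPM. Rpa1, the large subunit of the single-strand binding protein, was at 368, 399, 360 and 378 TPM against 240, 223, 193, 122 and 126 TPM, while Rpa2 was counted as lower with means of 21.3 and 93.2 TPM. Pold1 and the flap nuclease Fen1 were the other 2 counted as lower.

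Genes for leaving prophase, among them cyclins, Aurora kinases and their regulators, mostly stood higher in adult cells, though few by 2-fold. Of 22, 3 were counted as higher and none as lower, with a median log2 ratio of 0.35. Without the 2-fold requirement 15 were higher in position (beside 39.5% of all genes) and 4 lower (beside 41.8%). Their summed TPM was 2521 to 2614 in adult samples and 1538 to 1968 at 18 dpp. Aurka was at 306, 331, 278 and 320 TPM against 154, 158, 138, 67.6 and 73.9 TPM, Aurkc at 56.0, 48.9, 39.7 and 52.7 TPM against 22.2, 20.9, 21.8, 5.63 and 16.6 TPM, and Fbxo43, an inhibitor of the anaphase-promoting complex, at 44.9 to 51.2 against 10.6 to 25.6 TPM. Cdk1 and Ccnb1, which together drive entry into division, were at 120 to 135 against 104 to 122 TPM and at 61.6 to 78.3 against 60.3 to 85.9 TPM. The list depended on the mice at 18 dpp, with 1 gene higher without mice 4 and 5 and 7 higher against those 2 mice alone. Ccnb3, an X-linked cyclin of early prophase, was at 0.08 to 0.19 TPM against 7.68 to 13.9 TPM.

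Glycolytic genes exchanged places. Of 23 tested, 10 were counted as higher and 9 as lower, so that the median log2 ratio of 0.55 describes few of them. The genes counted as higher were Hk1, Pfkp, Aldoart1, Aldoart2, Gapdhs, Pgk2, Pgam2, Eno4, Ldha and Ldhc. The genes counted as lower were Hk2, Gpi1, Pfkl, Aldoa, Gapdh, Pgk1, Pgam1, Pkm and Ldhb. Hk1 was at 274, 290, 273 and 301 TPM against 96.9, 105, 93.0, 42.0 and 39.9 TPM. Ldhb was at 24.8, 39.0, 32.6 and 42.7 TPM against 568, 557, 576, 730 and 728 TPM, and Pkm, pyruvate kinase, at 29.2, 34.6, 37.4 and 42.1 TPM against 373, 372, 377, 512 and 495 TPM. In juvenile mice 9 of 21 tested genes of the list rose and 10 fell from 10 to 16 dpp. Of the Sertoli markers named above, the summed TPM moved with the genes counted as lower, and its part was not tested.

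Exchange of a general gene for its germline paralog was then measured within each library, where the scale of the table drops out. In each of 30 pairs the log2 ratio of germline over general TPM was computed with 0.1 TPM added to both. It was higher in every adult sample than in every 18 dpp mouse in 29 pairs, lower in 1 and overlapping in none. Of all single genes, 39.5% lay higher and 41.8% lower in position without overlap. No share was computed over other pairs, and these pairs were chosen with earlier results of these data known. The germline member exceeded the general one in every adult sample in 25 pairs, and in every 18 dpp mouse in 13. The general member was counted as lower in 15 pairs (beside 10.7% of all genes) and the germline member as higher in 11 (beside 11.4%). Summed Sertoli markers (545 to 801 against 6470 to 8563 TPM) moved with the general members and summed spermatid markers (6886 to 7589 against 956 to 2236 TPM) with the germline members, and their part was not tested. All 29 pairs held with mice 4 and 5 of 18 dpp left out and with mice 1 to 3 left out.

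Pairs with a general member on the X chromosome shifted by a median of 5.08 log2 units (15 pairs, 3.04 to 10.3), and autosomal pairs by 2.09 (15 pairs, -3.26 to 11.1). Pgk1, the general phosphoglycerate kinase (chrX:106187100-106203699, plus strand), was at 3.28, 4.21, 3.21 and 2.73 TPM in adult samples and 58.7, 58.6, 65.4, 91.2 and 86.0 TPM at 18 dpp. Its retrogene Pgk2 (chr17:40207015-40208640, minus strand) was at 357, 392, 361 and 390 TPM against 151, 154, 129, 41.3 and 33.6 TPM. The log2 ratio was 6.51 to 7.11 in adult samples and -1.35 to 1.39 at 18 dpp. Pgk1 shares 67.0% of its windows with processed copies and is uncertain, whereas Pgk2 shares none. Ubl4b over Ubl4a, of a tail-anchored protein insertion pathway, went from -7.82 to -5.86 at 18 dpp to 2.16 to 3.70 in adult samples. Ubl4b was at 0.20 TPM in 18 dpp mouse 1 and listed at 0 in the other mice. G6pd2 was listed at 0 in every 18 dpp mouse and averaged 3.71 TPM in adult samples, against 1.62 TPM for its X-linked parent G6pdx. Where a member was listed at 0, as in these pairs, the size of the shift depends on the 0.1 TPM added.

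In several X-linked pairs the germline member was not counted as higher while the general member was counted as lower. D1Pas1, an RNA helicase, averaged 212 against 116 TPM and its parent Ddx3x 6.34 against 117 TPM. Slc25a31, the testis ADP/ATP carrier, averaged 115 against 158 TPM, and Slc25a5 14.1 against 256 TPM. For the ribosomal proteins Rpl10l and Rpl39l, means were 421 against 281 and 563 against 334 TPM, with 5.69 against 85.9 TPM for Rpl10 and 7.67 against 243 TPM for Rpl39. Rpl10 shares 84.4% of its windows with processed copies.

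Among autosomal pairs Gapdhs and Gapdh changed most, by 11.1 log2 units, a size that depends on the 0.1 TPM added where Gapdhs was listed at 0. Gapdh was at 36.6, 51.3, 54.7 and 57.3 TPM in adult samples and 597, 600, 589, 851 and 936 TPM at 18 dpp, and shares 78.0% of its windows with processed copies. Gapdhs, of the sperm tail, was at 64.6, 45.6, 70.1 and 74.6 TPM against 1.53, 0.97, 0.43, 0 and 0 TPM. The 2 genes were therefore about equal in adult cells, with log2 ratios of -0.17 to 0.82. Ldhc and Ldha changed together, and their ratio moved by 0.14, from 1.67 to 1.87 at 18 dpp to 1.88 to 1.98. Ldha was at 1839, 1814, 1755 and 1796 TPM against 874, 830, 795, 501 and 442 TPM. Clgn over Canx, both calcium-binding chaperones, shifted by 2.09. The single pair toward the general member was Rad21l and Rad21, in which both were counted as lower.

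**Figure D4:**
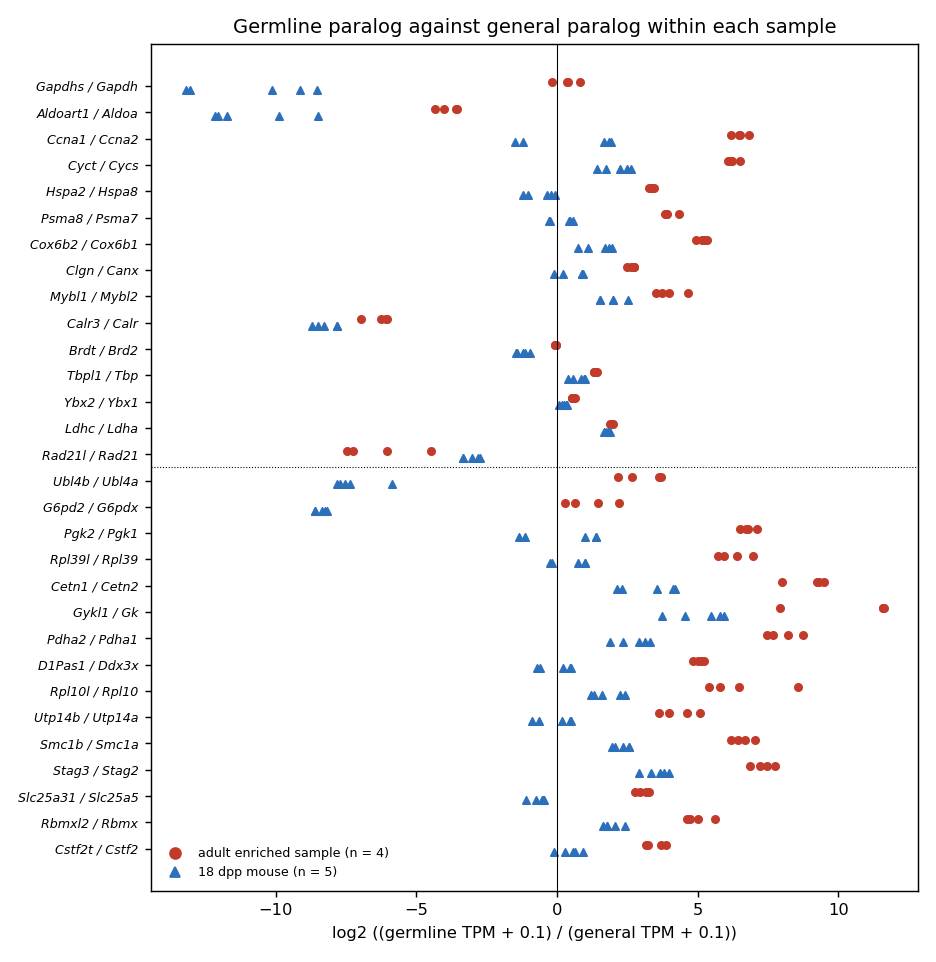
Log2 ratio of germline over general paralog, with 0.1 TPM added to each, in adult samples (red circles, n = 4) and 18 dpp mice (blue triangles, n = 5) for 30 pairs, with 15 autosomal pairs above the dotted line and 15 pairs with an X-linked general member below it. The groups do not overlap in any pair, and adult samples lie to the right in all but Rad21l over Rad21.

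In the proteasome, which degrades ubiquitin-tagged proteins, the pair of Psma7 and Psma8 shifted toward the germline member. Of 38 proteasome genes, 14 were counted as lower and 2 as higher, with a median log2 ratio of positions of -0.81. On the log2(TPM + 1) scale the median was -0.43, which is 0.17 above that of all genes, so that the list's direction depended on the scale. Psma7, a core subunit, was at 16.7, 20.8, 24.2 and 18.3 TPM against 168, 163, 172, 243 and 224 TPM. Its germline counterpart Psma8 was at 341, 294, 352 and 277 TPM against 226, 244, 235, 197 and 190 TPM, and was counted in neither direction by position. Their log2 ratio (Psma8 over Psma7) was 3.82 to 4.34 in adult samples and -0.30 to 0.58 at 18 dpp. Of the activators, Psme4, which is abundant in testis, was at 250, 263, 264 and 266 TPM against 143, 131, 118, 80.4 and 73.4 TPM. Psme1 was at 5.25, 3.43, 4.70 and 4.12 TPM against 54.7, 56.4, 58.7, 87.0 and 96.1 TPM, and Psme2 moved like it. Psmc3, an ATPase subunit, was the other gene counted as higher, at 1010, 1054, 1003 and 1033 TPM against 569, 579, 536, 359 and 353 TPM, and without mice 4 and 5 of 18 dpp 1 gene of the list was.

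Ribosomal protein genes were counted as lower in 54 of 74 cases and as higher in none, with a median log2 ratio of positions of -1.56. On the log2(TPM + 1) scale 27 of 74 were lower by at least 1, and the median was 0.15 below that of all genes. Rps2 was at 250 to 279 against 873 to 1194 TPM. The X-linked Rpl36a, Rps4x and Rpl39 shifted most in position within the list, and Rpl36a was at 5.38 to 5.88 against 235 to 442 TPM. Rpl13, in contrast, averaged 1005 and 1003 TPM and was counted in neither direction.

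The piRNA pathway, which makes small RNAs that silence transposons and cut transcripts, was mixed. Of 20 genes, 4 were counted as higher and 3 as lower (median log2 ratio 0.27). Mael, needed for transposon silencing, was at 1666, 1608, 1636 and 1654 TPM against 850, 810, 823, 529 and 496 TPM, Tdrd6, a scaffold of the chromatoid body, at 719, 751, 690 and 752 TPM against 307, 285, 252, 105 and 89.9 TPM, and Gtsf1, a cofactor of PIWI proteins, at 427, 382, 410 and 378 TPM against 196, 197, 186, 118 and 121 TPM. Henmt1, which methylates piRNA ends, was the fourth, at 77.0 to 81.2 against 26.2 to 40.8 TPM. Lower were Piwil2 at 120, 103, 117 and 103 against 181, 193, 190, 180 and 187 TPM, the helicase Mov10l1 at 49.7 to 67.1 against 130 to 160 TPM, and the co-chaperone Fkbp6 at 31.8, 29.2, 38.8 and 32.5 against 159, 180, 179, 225 and 234 TPM. Piwil1, the PIWI protein of pachytene cells, was at 602 to 675 against 281 to 401 TPM, in neither direction by position. From 10 to 16 dpp 19 of the 20 genes rose, Mov10l1 and Fkbp6 included.

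Annotated piRNA precursors, the long transcripts from which pachytene piRNAs are cut, summed to 1628 ± 67.7 TPM (SD, n = 4) in the adult pools. In the 18 dpp mice their sum was 764 ± 157 TPM (SD, n = 5). At 3 TPM or more, 71 to 76 of 214 were found in each adult sample and 43 to 69 in each 18 dpp mouse. Ranked with genes of all kinds, 10 of 85 were counted as higher and 1 as lower (11.8% and 1.18%, beside 11.5% and 14.7% of all 19465 genes). The most abundant, pi-17-qC-935, was at 385 to 449 against 136 to 204 TPM. The precursor pi-17-qC-59 was at 88.8 to 100 against 6.26 to 29.0 TPM.

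The X chromosome was depleted among adult transcripts. X-linked genes took 0.192, 0.194, 0.252 and 0.245% of Ensembl TPM in adult samples and 1.86, 1.91, 1.84, 2.49 and 2.57% in 18 dpp mice. Means were 0.221 ± 0.0321% (SD, n = 4) and 2.13 ± 0.363% (SD, n = 5), and the groups did not overlap. Without mice 4 and 5 of 18 dpp the difference was -1.65 percentage points, and against those mice alone -2.31. Of 452 protein-coding X-linked genes at 3 TPM or more in every 18 dpp mouse, 80 (17.7%) were so in every adult sample, and of 11003 autosomal genes 8315 (75.6%) were. By position 28.4% of 587 tested X-linked genes were counted as lower and 7.33% as higher, and 10.4% and 10.6% of 12897 autosomal genes. Without the 2-fold requirement 476 of the 587 were lower in position (beside 41.8% of all genes) and 69 higher (beside 39.5%). On the log2(TPM + 1) scale 500 of the 587 were lower and 50 higher, with a median 2.17 below that of all genes. Sertoli and other somatic markers moved in the same direction as X-linked genes, and their part was not tested.

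**Figure D5:**
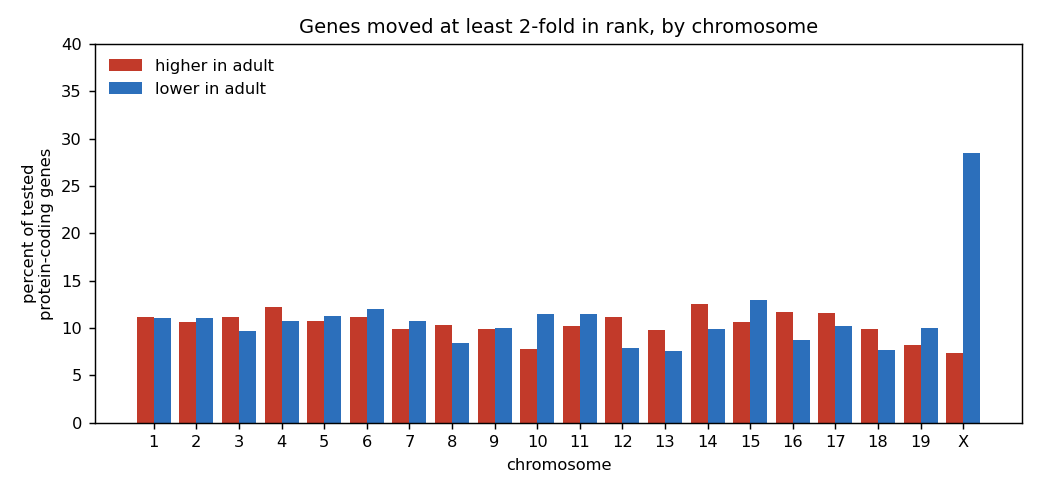
Percent of tested protein-coding genes counted as higher (red) or lower (blue) in adult cells for each autosome and the X chromosome. The X chromosome has 28.4% counted as lower, and every autosome lies between 7.63% and 12.98%.

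The X-linked genes of highest position in adult cells were Akap4, Maged1, Tsga8, Tmsb4x and Gm14569, and they were of opposite kinds. Akap4 and Tsga8, a spermatid nuclear protein (28.4 to 43.7 against 4.48 to 12.5 TPM), were counted as higher. Maged1 was at 30.5, 39.4, 38.5 and 41.2 TPM against 653, 661, 663, 826 and 843 TPM, Tmsb4x, thymosin beta 4, at 27.7 to 38.3 against 602 to 868 TPM, and Gm14569 at 24.3 to 35.0 against 273 to 314 TPM. These 3 were therefore counted as lower although they were among the 5 highest. In all, 43 X-linked genes were counted as higher, among them Cypt1, Cypt2 and Cypt3, Hypm, Cylc1, Spaca5, Actrt1 and several copies of H2al1. Of the 43, 9 met the presence rule for adult cells alone. Many of the others were at a few TPM in adult samples and listed at 0 in most 18 dpp mice. Many of the 43 belong to multi-copy families, whose reads cannot be assigned with certainty. Y-linked genes took 0.0185 ± 0.0054% of Ensembl TPM in adult samples and 0.0484 ± 0.0039% at 18 dpp, and 4 of 40 tested were counted as higher and 6 as lower. The median log2 ratio of positions of the 40 was 0.71, opposite in direction to the share. Without overlap 19 were higher (beside 39.5% of all genes) and 13 lower (beside 41.8%). On the log2(TPM + 1) scale 16 were higher and 13 lower, with a median of 1.22.

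Genes with the largest ratio of positions toward 18 dpp were Ptma, Sparc, Clu, Fos, Aard, Cst12, Hspa8, Acta2, Tmsb4x and Defb19. Clu, Aard and Cst12 are in the Sertoli marker list and Acta2 in the peritubular list. Fos, an immediate early gene, was at 8.23, 13.2, 9.64 and 4.22 TPM against 550, 512, 475, 634 and 807 TPM. Ptma, prothymosin alpha of dividing cells, was at 54.8, 50.1, 51.9 and 53.3 TPM against 875, 1018, 881, 1145 and 1244 TPM and shares 20.2% of its windows with other genes. Hspa8, the general partner of Hspa2, was at 147, 143, 163 and 150 TPM against 1043, 1205, 1106, 1374 and 1466 TPM and shares 62.8%. Among genes present at 18 dpp alone the most abundant were Eln, Hba-a2, Hbb-bs, Col1a1, Mfap4, Lamc3, Myh11, Hba-a1, Fgl2 and Fhl2, mainly genes of matrix, smooth muscle and red blood cells. Col1a1, collagen, was at 0.18 to 0.53 against 73.4 to 156 TPM.

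The change from 10 to 16 dpp, tested with limma in mice that enter no adult comparison, was set beside the adult levels. Of 4524 Ensembl genes that rose, 84.5% were at 3 TPM or more in all adult samples, and of 4321 that fell, 49.0% were, beside 62.4% of all 14463 tested. Among risers that could be ranked, 21.0% were counted as higher and 6.58% as lower in adult cells than at 18 dpp. Among genes that fell, 0.698% and 19.9% were. Beside these stand 8.01% and 11.9% of all genes so tested. Late pachytene genes shared this pattern, with 28 of 28 tested rising from 10 to 16 dpp, and Ldhc rose by 7.93 ± 0.34 (SE) log2 units (adjusted p = 1.66e-14). The early prophase genes Prdm9, Dmc1, Hormad1 and Zcwpw1 rose from 10 to 16 dpp yet were counted as lower in adult cells. These p-values measure only the spread between single mice.

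The pooled adult samples varied little among themselves. The median SD of log2(TPM + 1) was 0.09 over 7666 genes that averaged 10 TPM or more, and 0.19 over 10114 such genes at 18 dpp. Each adult sample was a pool of mice and each 18 dpp sample a single mouse, and the genes counted differed. The 18 dpp value also spans the mice that stood apart. These SDs therefore cannot compare variation between mice of the different ages, and the part of pooling was not tested. In 201 of the 7666 genes (2.62%) the range among adult samples exceeded 2-fold. In 170 of these genes adult sample 2 was lowest, and in 151 sample 3 was highest. Of the 201, 133 were counted as higher (beside 11.4% of all genes) and 12 as lower (beside 10.7%). Present in adult cells alone were 52 (beside 1.49%). The 201 were drawn from genes averaging 10 TPM or more in adult samples, a filter that favours genes high there. No share was computed over the 7666, so the counts describe no trait of variable genes. The largest SDs belonged to Cypt2, Tctex1d1, BC037034, 4930578I06Rik and Cypt1. Tctex1d1 was at 7.02, 4.30, 18.8 and 10.9 TPM and Cypt1 at 21.3, 7.99, 28.7 and 21.0 TPM in adult samples 1 to 4. Spermatid genes showed the same order in part, as Akap4, Tmco2 and Smcp were also lowest in adult sample 2.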

How the data were processed

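RNA-seq of 4 pools of enriched adult spermatocytes and of 28 single juvenile mice was analysed here, from poly(A) libraries with 100-base paired-end reads. The submitters' notes name Bowtie 1.0.0 and RSEM 1.2.8, and the authors aligned reads to transcripts of Ensembl release 75, NONCODE and 214 piRNA precursors. The deposited values are TPM, per gene for adult samples and per transcript for juvenile mice, and the transcripts were summed by gene. A second juvenile gene table, whose values are not plain TPM, and a column of the authors' own substage calls were not used here. No read counts and no strand setting are given in the sources used here.

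Symbols, chromosomes and gene types came from GENCODE M21 on GRCm38 by Ensembl identifier (37708 of 38904 matched). Promoters came from RefSeq, by symbol or synonym, and 80.8 to 83.8% of each group matched. Windows of 100 bases of each named gene's transcript were searched in all other genes' transcripts. Ranks, presence at 3 TPM, pair ratios and chromosome shares were computed in Python 3.11.15 with pandas 2.3.3 and numpy 2.4.6, and figures with matplotlib 3.10.9. The 10 to 16 dpp contrast was fitted on log2(TPM + 1) with limma 3.58.1 in R 4.3.3, over mice of 8 to 16 dpp, with a variance trend and Benjamini-Hochberg adjustment over 19248 genes at a threshold of 0.05. Ranking and limma scripts were tested on simulated data.

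Genes were named by rule as members of the lists and pairs, the 10 highest in adult cells, the 10 with the largest ratio of positions in each direction, the 10 highest of those under 1 TPM in the other group, the 5 highest X-linked genes and the 5 of largest SD. The members and lists were chosen with earlier results of these data known. The alternatives covered the ratio, the genes ranked, the scale, the presence level, the pseudocounts, the filter, the limma model and the samples left out. Mouse numbers are shared between ages only as names, and same-numbered mice did not deviate together.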

Additional observations from a re-analysis of the deposited data

Results flagged for a closer look

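In 298 groups of 4 or 5 samples the highest or lowest value was compared with the others, and 11 groups had a gap that large, where chance gives about 1 in 20. Among adult samples, the summed TPM of the genes for leaving prophase was lowest in sample 3 at 2521 TPM, with the others at 2602 to 2614 TPM. The summed TPM of piRNA precursors was lowest in adult sample 4 at 1527 TPM, with 1654 to 1672 TPM in the others. Syce1 was highest in adult sample 1 at 715 TPM, with 696 to 698 TPM in the others.

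The log2 ratio of Cetn1 over Cetn2, centrins of the basal body, was lowest in adult sample 3 at 8.01, with 9.25 to 9.50 in the others. That of Gykl1 over Gk, glycerol kinases, was lowest in adult sample 1 at 7.92, with 11.57 to 11.60 in the others. Gk was at 1.08 TPM in adult sample 1 and listed at 0 in the others, where the ratio rests on the 0.1 TPM added. Hba-a1 was detected in adult sample 2 alone, at 0.33 TPM.

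Among 18 dpp mice, the log2 ratio of Ubl4b over Ubl4a was highest in mouse 1 at -5.86, with -7.82 to -7.34 in the others. Ubl4b was at 0.20 TPM in mouse 1 and listed at 0 in the others, where the ratio rests on the 0.1 TPM added. Prm2 at 0.57 TPM and Tmco2 at 0.96 TPM were detected in mouse 2 alone, and Cypt2 at 0.41 TPM in mouse 1 alone. BC037034 was highest in mouse 3 at 40.7 TPM, with 9.87 to 15.8 TPM in the others. No explanation of these values was tested.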

How the results depend on the processing

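Counts by position moved with the ratio required: 3411 genes were higher and 3262 lower at 1.5-fold, and 154 and 354 at 4-fold. With all kinds of gene ranked together 2605 of the same Ensembl genes were lower. On log2(TPM + 1) 2594 were higher and 6246 lower, and with 0.1 TPM added 2702 and 6442. With 18 dpp mice 1 to 3 left out, a setting added after the data were seen, 2604 genes were higher, 433 were present in adult cells alone and the X share differed by -2.31 points. Genes present in adult cells or at 18 dpp alone numbered 138 and 85 at 1 TPM against 0, 68 and 216 at 10 TPM against under 1, and 495 and 2383 at 3 TPM against under 3. The cause of these shifts was not tested.

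Leaving out 1 sample at a time gave 1580 to 2149 genes higher, 1500 to 1809 lower, 224 to 293 present in adult cells alone, 951 to 1032 at 18 dpp alone, X differences of -1.99 to -1.80 points, 29 pairs toward the germline member each time and a median adult SD of 0.086 to 0.091. In limma, at least 5149 genes rose and 4833 to 5198 fell. Under quantile normalization 4605 rose and 6893 fell, a split of 40.1% rising against 51.0%. With mouse number as a replicate block 5345 rose and 5151 fell, and the pairing correlations of -0.03 to 0.03 show no pairing. None of the 390 values of pairs changed direction, and the groups came to overlap in none. Of 988 values of named genes 960 kept their call, and 97 of 760 counts of list members moved by over 1.5 times. The order of counts by position (1696 higher, 1603 lower) turned at 4-fold, with all kinds of gene ranked together and on both log2 scales. It also turned without adult sample 4, at 1671 higher and 1672 lower. The order of presence turned at 1 TPM against 0. For limma it turned under quantile normalization and at 3 TPM in at least 3 mice, where 5024 rose and 5068 fell. The lack of read counts limits every value near 1 TPM.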

Other observations

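Kinds of noncoding gene differed. Of 301 tested lincRNAs, 27.9% were counted as higher by position and 3.65% as lower, and of 341 antisense genes 25.2% and 3.23%, beside 10.4% and 11.3% of 13536 protein-coding genes. Processed pseudogenes, which share sequence with their parents, had 10.5% and 13.1% of 229. Antisense genes cannot be told from their partners where counting was without strand. Of 4451 NONCODE genes ranked with genes of all kinds, 371 (8.34%) were counted as higher and 260 (5.84%) as lower, beside 11.5% and 14.7% of all genes so ranked, and their summed TPM averaged 75342 in adult samples and 97006 at 18 dpp.

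Genes of chromosome 17, which carries Pgk2, Crisp2 and Gm3448, took 7.46% of Ensembl TPM in adult samples and 5.50% at 18 dpp, while 11.6% of its 665 tested protein-coding genes were counted as higher, beside 10.6% of all autosomal genes.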
